A study of Mus musculus with 6 samples.

Results

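Among 67050 mouse retinal cells sequenced one by one at embryonic day 14, 2662 carried the submitters' horizontal cell label, and 548 of these (20.6% of the label, 0.817% of all cells) are described here. They were chosen on raw counts of unique molecular identifiers (UMIs, each standing for 1 captured RNA molecule). In each of them the summed UMIs of Tfap2a, Tfap2c, Prdm13 and Ptf1a were at least 1 and exceeded the summed UMIs of Onecut1, Onecut2, Lhx1 and Prox1. In another 1733 labelled cells the second sum was the larger, 244 cells had equal sums above 0, and 137 had no UMI of any of the 8 genes. A working name of amacrine-like cells went with this choice. Because Ptf1a carried most of the choice and the amacrine genes outside it were split, they are called Ptf1a-led cells below, and the 1733 are called Onecut2-led cells. The 8 genes chose the cells and are given only as a description.

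The 6 libraries form 3 groups of 2, all of retinal cells of age E14. Those named Bax_het_Atoh7_Null carry 1 intact Bax allele and no intact Atoh7, those named Bax_Null lack Bax and are named for no Atoh7 mutation, and those named Bax_Null_Atoh7_Null lack both genes. Every group therefore has at least 1 mutant Bax allele, and no wild-type library was analysed here. Atoh7 encodes a transcription factor needed for retinal ganglion cells, and Bax encodes a protein that drives cell death through mitochondria. The labels do not say whether the 2 libraries of a group came from separate animals or litters, so p-values measure only the spread between these libraries, which may be technical.

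The libraries held 9269 to 14730 cells and 22463515 to 66594431 UMIs. From each library 68 to 153 Ptf1a-led cells came, summing to 118536 to 399442 UMIs. Atoh7 had 0 UMIs in all 4 libraries labelled Atoh7 null, and 376 and 458 UMIs in the 2 Bax_Null libraries. In Ptf1a-led cells Bax stood, in the order Bax_het_Atoh7_Null replicates 1 and 2, Bax_Null replicates 1 and 2, Bax_Null_Atoh7_Null replicates 1 and 2, at 201, 144, 47.4, 25.0, 90.4 and 16.9 CPM (counts per 1000000 UMIs). Its level in the library labelled Bax_Null_Atoh7_Null replicate 1 thus lay between the Bax-carrying and the other Bax null libraries, and this holds wherever a direction is drawn from that library. The 2 Bax_Null libraries stood apart from the other 4. Their Ptf1a-led cells had median depths of 3746 and 4318.5 UMIs against 1346.5 to 1994 elsewhere, and mitochondrial shares of 3.86% and 4.18% against 1.08% to 1.14%. How libraries were made and Atoh7 genotype cannot be told apart in comparisons with the Bax_Null group. Between Bax_het_Atoh7_Null and Bax_Null the Bax genotype differs as well and cannot be told apart from these either. Of the Ptf1a-led cells, 60 (10.9%) had a barcode sequence also found in another library, compared with 13.8% of all cells, and 1 barcode was shared among the Ptf1a-led cells themselves.

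As background, amacrine and horizontal cells are the inhibitory interneurons of the retina, and both arise from precursors that switch on Ptf1a, a basic helix-loop-helix transcription factor. Prdm13 acts with Ptf1a toward amacrine fates, while Onecut1, Onecut2, Lhx1 and Prox1 mark the horizontal branch. The AP-2 factors Tfap2a, Tfap2b and Tfap2c are used by both branches. Before either fate is taken, dividing progenitors are held back by Notch signalling: Delta ligands on one cell activate Notch on the next, Fringe enzymes tune that contact by adding sugars to Notch, and the repressors Hes1 and Hes5 are its direct targets.

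Ptf1a and Prdm13 made nearly the whole choice. Ptf1a gave 1241 UMIs in 463 of the 548 cells (69.0% of the UMIs of the 4 genes) and Prdm13 gave 492 UMIs in 304 cells (27.3%). The AP-2 genes gave few, with 37 UMIs of Tfap2c in 32 cells and 29 UMIs of Tfap2a in 23 cells. Both Ptf1a and Prdm13 were seen in 223 cells, and neither in 4. A Ptf1a UMI was found in 84.5% of Ptf1a-led cells (median 2106.5 UMIs a cell), a share that follows from the choice, and in 0.227% of multipotent progenitors (median 2709.5 UMIs). Per library, Ptf1a stood at 897, 868, 797, 844, 660 and 658 CPM, in the order given above. Prdm13 stood at 401, 462, 171, 173, 426 and 531 CPM. No comparison of genotypes is drawn from either, since the cells were chosen on these counts.

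Many cells lay near the cut between the classes. Among Ptf1a-led cells 111 had a summed count of 1 for the 4 choosing genes, 119 of 2, 109 of 3 and 209 of 4 or more. Onecut2, a horizontal and ganglion cell factor, was found in 53.5% of Ptf1a-led cells and in 99.5% of Onecut2-led cells. Conversely 46.9% of Onecut2-led cells had a Ptf1a UMI. The margin between the sums was only 1 UMI in 260 Ptf1a-led and in 327 Onecut2-led cells. Just inside the cut, at a margin of +1, Hes5 averaged 529 CPM and Tfap2b 352 CPM. At equal sums they averaged 399 and 507 CPM, and at a margin of -1 they averaged 332 and 437 CPM.

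The working name was checked against genes outside the cut, on plain CPM averaged over 6 libraries. Tfap2b, an AP-2 factor, averaged 304 CPM in Ptf1a-led and 810 CPM in Onecut2-led cells. Six6 averaged 406 against 549 CPM and Barhl2 23.0 against 50.2 CPM. Neurod4 averaged 94.9 against 57.7 CPM, Meis2 72.3 against 56.2 CPM and Dlx2 33.8 against 26.3 CPM. Meis2 and Dlx2 did not pass the edgeR test between classes described below (adjusted p 0.139 and 0.501). Neurod4 and Meis2 were higher in cones than in either class, at 466 and 876 CPM. Lhx9, Fezf1, Megf11, Chat, Slc18a3, Neurod2 and Neurod6, 7 of the 22 genes listed for amacrine fate and subtypes, had 0 UMIs in Ptf1a-led cells. Gad1, which makes the inhibitory transmitter GABA, and Slc6a5, the glycine transporter of glycinergic neurons, were also at 0. Onecut2-led cells were at or near 0 for these genes too, with 2 UMIs of Gad1, 11 of Lhx9 and none of Slc6a5, Chat, Slc18a3 or Neurod6. Of the 19 genes listed for inhibitory transmission and synapse, only these 2, Gad1 and Slc6a5, were at 0 in Ptf1a-led cells. Among the others, Gad2 averaged 34.9 CPM in Ptf1a-led and 73.6 CPM in Onecut2-led cells. Slc32a1 averaged 9.84 CPM (17 UMIs) against 18.2 CPM, and Slc6a9 2.32 CPM (3 UMIs) against 2.01 CPM. Markers of other cells were present at a low level: the 18 genes listed for blood, immune, vessel, pigment and connective tissue cells summed to 360 to 1350 CPM in Ptf1a-led and 342 to 913 CPM in Onecut2-led cells. Of these, the vessel gene Cldn5 alone averaged 303 CPM (202 to 422) in Ptf1a-led cells. Of these 18, Cx3cr1, Cdh5, Tyrp1, Dct, Col3a1 and Pdgfra were at 0 in Ptf1a-led cells. The highest sums were in Bax_Null replicate 1, where the red cell gene Hba-a1 alone stood at 550 plain CPM, and the part of such RNA in the results was not tested.

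The submitters' own clustering, which did not use the cut, placed most Ptf1a-led cells in clusters 2 and 45. Cluster 2 held 37.4% of Ptf1a-led and 30.8% of Onecut2-led cells, and cluster 45 held 32.8% and 13.8%. Clusters 57 and 76 held 7.48% and 2.74% of Ptf1a-led cells, against 23.0% and 22.3% of Onecut2-led cells. Ptf1a-led cells were unlike one another across these clusters. In cluster 45 (180 cells) they averaged 894 CPM of Hes5 (590 to 1340 over libraries), 164 CPM of Lfng and 1030 CPM of Fgf15, a growth factor of retinal progenitors, but 41.6 CPM of Tfap2b (18.2 to 67.3). In cluster 57 (41 cells) they had 0 CPM of Hes5 and of Lfng in every library, but averaged 1150 CPM of Tfap2b (601 to 1610) and 739 CPM of Ina (0 to 1320), a neuronal intermediate filament. Cluster 76 held only 15 of them. Cluster 2 lay between, with 221 CPM of Hes5 and 338 CPM of Tfap2b. These are means over libraries, given as a description, because the clusters were made from the same genes.

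**Figure D1:**
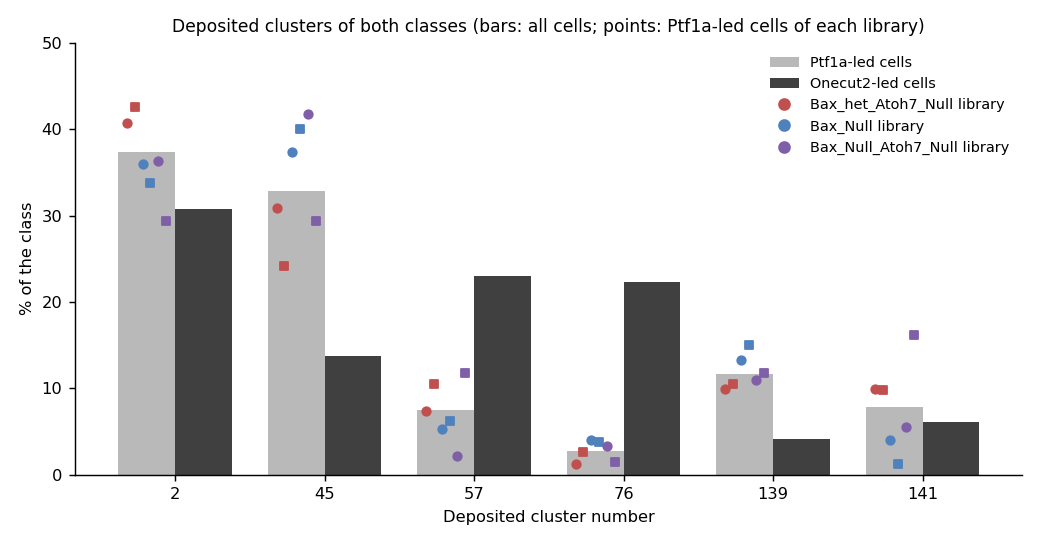
Percent of the 548 Ptf1a-led cells (light bars) and of the 1733 Onecut2-led cells (dark bars) in each of the submitters' clusters, over all 6 libraries, with points for the Ptf1a-led cells of each library. Clusters 2 and 45 hold 37.4% and 32.8% of the Ptf1a-led cells, while clusters 57 and 76 hold 23.0% and 22.3% of the Onecut2-led cells.

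The first comparison asked how the Ptf1a-led cells differed from the Onecut2-led cells of the same library. Of the listed genes tested, 8 of 14 progenitor genes were higher in Ptf1a-led cells, the Notch targets Hes5 and Hes1 among them, while 9 of 10 pan-neuronal and 8 of 10 synaptic genes were lower, against 5.32% of all genes tested that were higher and 5.4% that were lower. The Fringe gene Lfng was higher by a log2 difference of 2.16, and the microtubule protein gene Dcx was lower by a log2 difference of -2.49. Summed UMI counts were compared with edgeR's quasi-likelihood test, with the library as a block and Benjamini-Hochberg adjustment over 5793 genes, the 8 choosing genes left out. Of these, 621 (10.7%) passed an adjusted p of 0.05, 308 (5.32%) higher and 313 (5.4%) lower in Ptf1a-led cells, and the median log2 difference over all genes tested was 0.01. DESeq2 called 302, and 168 were called with only cells that had no UMI of the other sum. Levels in this comparison are CPM scaled by edgeR's TMM factors. Clusters 2 and 45 hold most Ptf1a-led cells, and clusters 2, 57 and 76 most Onecut2-led cells.

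Of the 14 progenitor genes tested, 8 were higher in Ptf1a-led cells and none lower, with a median log2 difference of 0.38. Hes5, the Notch target (chromosome 4, 154960923 to 154962371, plus strand, mm10), stood at 653, 374, 578, 1160, 595 and 497 CPM in Ptf1a-led cells. In Onecut2-led cells of the same libraries it stood at 223, 102, 226, 161, 257 and 127 CPM. The 2 sets of libraries did not overlap, and the log2 difference was 1.83 (SE 0.11, edgeR adjusted p 4.42e-23), higher in 6 of 6 libraries. Hes1, the sister repressor, was 154, 110, 765, 854, 151 and 115 CPM against 75.2, 64.8, 431, 508, 83.3 and 57.5 CPM. It was higher in each of the 6 libraries by similar steps (log2 difference 0.82, SE 0.09, edgeR adjusted p 1.72e-10), although its level was several times higher in both classes of the Bax_Null libraries. Fgf15 was 751, 666, 337, 330, 820 and 893 CPM against 301, 263, 281, 188, 463 and 316 CPM (log2 difference 1.03, SE 0.09, edgeR adjusted p 4.17e-15). Within every library the Ptf1a-led value was the higher one, by least in Bax_Null replicate 1. The receptor gene Notch1 (0.91), the helix-loop-helix inhibitors Id1 (1.18) and Id3 (0.38), the eye-field factor Rax (0.66) and the progenitor factor Sox2 (0.37) made up the rest of the 8, given as log2 differences. Id3 kept its call in 8 of 16 other settings, with differences of -0.35 to 0.56. For Sox2 the call was lost without any of 5 of the 6 libraries, at log2 differences of 0.31 to 0.4 (edgeR adjusted p 0.0576 to 0.189).

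Of 15 tested genes of the step from progenitor to neuron, 7 were higher, 1 was lower and 7 did not pass, with a median log2 difference of 0.30. Mfng, a Fringe enzyme, was 113, 112, 149, 148, 137 and 108 CPM in Ptf1a-led cells and 52.7, 30.6, 46.2, 62.5, 56.0 and 39.4 CPM in Onecut2-led cells. Every Ptf1a-led library lay above every Onecut2-led library (log2 difference 1.43, SE 0.15, edgeR adjusted p 2.95e-11). Btg2, an antiproliferative gene known from progenitors at their last divisions, was 432, 295, 321, 339, 508 and 194 CPM against 224, 96.6, 126, 184, 224 and 121 CPM (log2 difference 1.13, SE 0.1, edgeR adjusted p 1.16e-14). It was higher in all 6 libraries. The Delta-like ligand genes Dll1 (0.94, edgeR adjusted p 0.0168) and Dll3 (0.88, 0.00815) were higher at low levels, Dll1 not in Bax_het_Atoh7_Null replicate 2. Without Bax_het_Atoh7_Null replicate 1 their differences were 0.83 (edgeR adjusted p 0.0949) and 0.61 (0.166). Sox4, a factor of newborn neurons, was the member that was lower, by a log2 difference of -0.35.

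Lfng, a Fringe enzyme outside the lists, had the largest rise among the genes named by the rule for size. It stood at 144, 61.8, 103, 179, 73.2 and 57.6 CPM in Ptf1a-led cells and 25.1, 9.79, 39.7, 30.7, 20.5 and 12.1 CPM in Onecut2-led cells (SE 0.19, edgeR adjusted p 2.39e-14). No library of one class reached into the range of the other. Next to it by size were Slc9a3r1, a scaffold of membrane proteins (1.96), Lrp8, a receptor for reelin (1.78), Tmem178 (1.61) and Pgm2, a phosphoglucomutase (1.56). Pgm2 was also abundant, at 135 to 427 CPM against 63.8 to 91.5 CPM.

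The promoters of Hes5 and Lfng are shown because these genes had the largest rises among the Notch genes described. They come from RefSeq (GRCm38.p6), run from 250 bases before to 50 after the gene's start on the plus strand, and have in capitals each TGGGAA or TTCCCA, the core of the site bound by the Notch cofactor RBPJ on either strand. Hes5 lies at chr4:154960673-154960972 with matches 226 and 82 bases before the start, and Lfng at chr5:140607091-140607390 with matches 135 and 108 bases before it.
Hes5: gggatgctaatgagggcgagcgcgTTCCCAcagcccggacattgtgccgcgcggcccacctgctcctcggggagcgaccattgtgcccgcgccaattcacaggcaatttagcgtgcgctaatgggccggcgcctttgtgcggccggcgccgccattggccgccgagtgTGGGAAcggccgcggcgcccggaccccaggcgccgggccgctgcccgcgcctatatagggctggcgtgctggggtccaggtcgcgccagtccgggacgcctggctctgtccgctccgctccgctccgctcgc
Lfng: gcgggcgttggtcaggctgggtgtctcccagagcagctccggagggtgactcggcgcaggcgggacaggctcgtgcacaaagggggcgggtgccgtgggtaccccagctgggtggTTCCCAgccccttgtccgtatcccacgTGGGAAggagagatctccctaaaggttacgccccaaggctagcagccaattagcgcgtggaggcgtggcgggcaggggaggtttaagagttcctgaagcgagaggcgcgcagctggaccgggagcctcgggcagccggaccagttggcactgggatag
Such a match was found in 25.6% of 32851 promoters of this length, so a match is common, and its use was not tested.

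Of 14 cell cycle genes tested, Ube2c alone passed (log2 difference 0.61, SE 0.21, edgeR adjusted p 0.0456), higher in 3 of 6 libraries at 19.1 to 185 CPM. Its difference was 0.29 (edgeR adjusted p 0.571) without Bax_Null_Atoh7_Null replicate 1 and 0.47 (0.271) without Bax_het_Atoh7_Null replicate 2. Top2a, a topoisomerase of dividing cells, was 36.0, 98.4, 23.0, 33.9, 166 and 50.4 CPM in Ptf1a-led and 48.8, 62.4, 76.9, 51.5, 97.0 and 56.0 CPM in Onecut2-led cells. The classes overlapped (log2 difference 0.03, SE 0.2, edgeR adjusted p 0.967). Without both Bax_Null libraries, Cenpf (0.82, edgeR adjusted p 0.0063), Ube2c (0.77, 0.0175) and Rrm2 (0.76, 0.0422) were higher in Ptf1a-led cells. In that fit Top2a had 0.45 (0.197) and Pcna -0.1 (0.917), and neither passed. Across the submitters' cell types, on plain CPM, Top2a averaged 71.8 in Ptf1a-led cells, against 697 in neurogenic cells and 464 in multipotent progenitors. Hes5 showed another order, at 626 in Ptf1a-led cells, 930 in neurogenic cells, 426 in multipotent progenitors and 183 in Onecut2-led cells. Sfrp2, a Wnt modulator of progenitors, averaged 406 in Ptf1a-led cells and 2390 in multipotent progenitors. These levels across cell types are a description with no test.

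Neuronal genes were lower in Ptf1a-led cells. Of 10 pan-neuronal genes, 9 were lower and none higher, with a median log2 difference of -0.77. Ina stood at 396, 312, 157, 237, 317 and 382 CPM in Ptf1a-led and 1270, 1060, 485, 471, 1100 and 1060 CPM in Onecut2-led cells. It was lower in all 6 libraries, and no class overlapped the other (log2 difference -1.58, SE 0.08, edgeR adjusted p 2.58e-27). Dcx, which binds microtubules in migrating neurons, was 10.3, 16.9, 15.3, 49.3, 29.3 and 0 CPM against 142, 182, 94.9, 110, 120 and 108 CPM (SE 0.23, edgeR adjusted p 2.8e-14). The tau gene Mapt (-1.37) and Celf4, a neuronal RNA-binding protein gene (-1.32), moved alike, while the tubulin gene Tubb3 differed by only -0.21, all with adjusted p under 0.05 in edgeR. Of 6 ganglion cell genes tested, Gap43, Stmn2, Elavl4 and Klf7 were lower. The growth cone gene Gap43 led them (log2 difference -1.45, SE 0.13, edgeR adjusted p 9.64e-15), with -0.17 (0.934) within cluster 2, and Klf7 kept its call in only 4 of 16 other settings. Of the horizontal differentiation genes, the neurofilament genes Nefl (-1.61) and Nefm (-1.14) were lower among 4 tested. A low level in summed counts can come from fewer cells with the RNA or from less RNA per cell.

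Synaptic genes were lower in 8 of 10 tested, with a median log2 difference of -0.79. Nrxn3, a presynaptic adhesion protein gene, was 123, 160, 111, 70.9, 117 and 101 CPM against 385, 322, 215, 212, 294 and 260 CPM. All Ptf1a-led libraries lay below all Onecut2-led libraries (log2 difference -1.27, SE 0.12, edgeR adjusted p 2.8e-14). Gad2, which makes GABA, was 21.6 to 56.2 CPM against 42.9 to 93.9 CPM, lower in every library (log2 difference -0.98, SE 0.21, edgeR adjusted p 0.00036). Cplx2, a complexin that acts in vesicle release, went the other way. Its levels were 92.5, 73.1, 91.8, 157, 83.0 and 72.0 CPM against 43.5, 37.9, 64.1, 61.3, 41.0 and 30.3 CPM, again without overlap (log2 difference 1.03, SE 0.17, edgeR adjusted p 3.28e-06). Cplx3, its relative in the retina, was lower (log2 difference -0.87, SE 0.16, edgeR adjusted p 4e-05).

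The amacrine fate genes outside the cut did not move as one. Of 9 tested, Neurod4 was higher, Tfap2b, Barhl2 and Six6 were lower and 5 did not pass, with a median log2 difference of -0.04. Tfap2b, the AP-2 factor of amacrine and horizontal cells, stood at 329, 447, 241, 185, 156 and 403 CPM in Ptf1a-led cells. In Onecut2-led cells it stood at 919, 982, 622, 620, 634 and 946 CPM, above every Ptf1a-led library (log2 difference -1.43, SE 0.08, edgeR adjusted p 1.9e-24). Neurod4, a basic helix-loop-helix factor of amacrine precursors, was 103, 118, 119, 111, 39.0 and 86.4 CPM against 62.0, 53.8, 70.5, 90.7, 34.2 and 43.9 CPM (log2 difference 0.69, SE 0.16, edgeR adjusted p 0.00122). It was higher in 6 of 6 libraries, and the classes overlapped between libraries. Within cluster 45 its difference was -0.24 (edgeR adjusted p 0.782). Pax6, a factor of progenitors and amacrine cells, did not pass (log2 difference -0.06, SE 0.04, edgeR adjusted p 0.403). Barhl2, a homeobox factor of amacrine and ganglion cells, was lower at 15.4 to 30.8 CPM against 36.9 to 58.7 CPM (log2 difference -1.19, SE 0.25, edgeR adjusted p 0.000331).

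**Figure D2:**
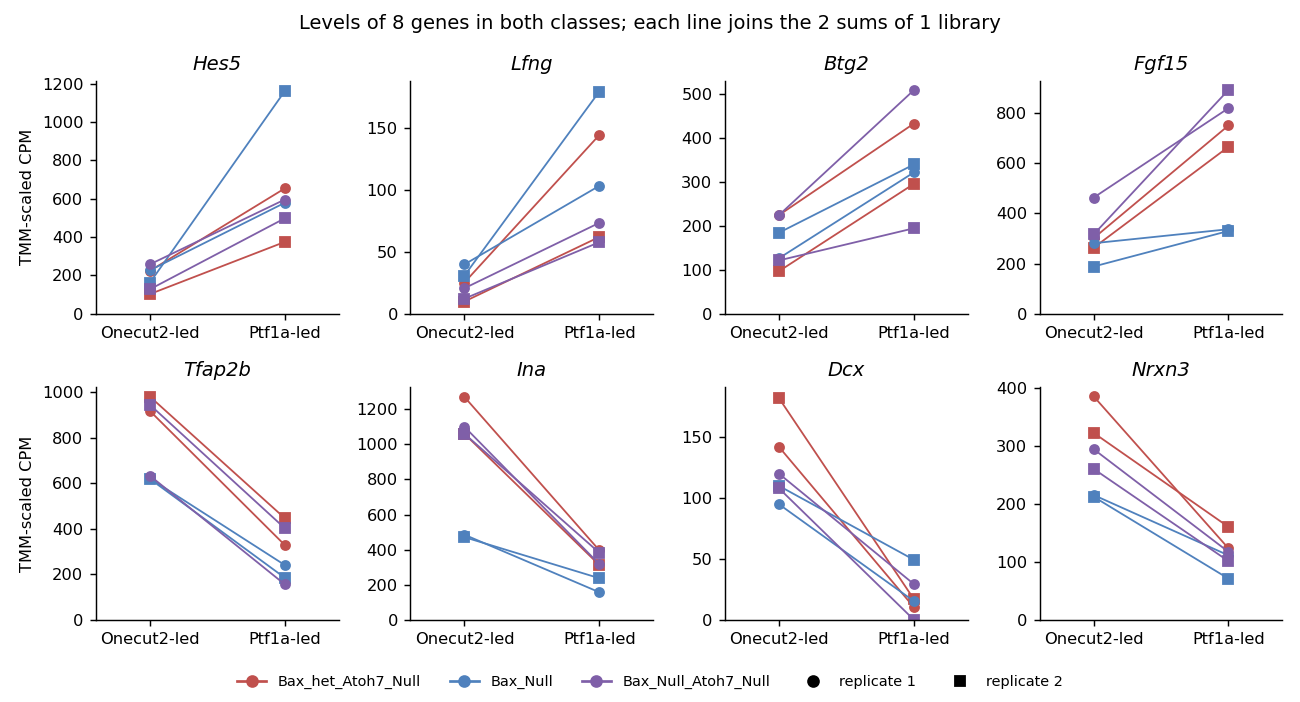
Level of selected genes in Ptf1a-led and Onecut2-led cells of each of the 6 libraries, in TMM-scaled CPM, with a line joining the 2 classes of a library and colours for genotype. Hes5, Lfng, Btg2 and Fgf15 are higher in the Ptf1a-led cells of all 6 libraries, and Tfap2b, Ina, Dcx and Nrxn3 are lower in all 6.

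Among markers of other cells, Otx2, the photoreceptor and bipolar factor, was 15.4, 42.2, 233, 151, 87.8 and 57.6 CPM against 29.0, 46.5, 78.2, 129, 35.5 and 51.5 CPM. It passed the test (log2 difference 0.64, SE 0.18, edgeR adjusted p 0.00985) and was lower, not higher, in both Bax_het_Atoh7_Null libraries. Without Bax_Null replicate 1 the difference was 0.28 (edgeR adjusted p 0.502), and without Bax_Null_Atoh7_Null replicate 1 it was 0.57 (0.056). None of the 5 tested genes of non-retinal cells passed (median log2 difference 0.21). Of 10 stress and cell death genes, Bbc3, which encodes the death activator PUMA, was lower (log2 difference -0.94, SE 0.24, edgeR adjusted p 0.00321), and 9 did not pass. Depth hardly differed between the classes of a library: the medians in Ptf1a-led cells were 1994, 1857, 3746, 4318.5, 1694 and 1346.5 UMIs, and in Onecut2-led cells 2187.5, 1919.5, 3668, 4373, 1675 and 1472 UMIs. Of the Ptf1a-led cells, 56 were among the 8% of cells of their library with the highest doublet scores, from 3.75% of them in Bax_Null replicate 2 to 16.5% in Bax_Null_Atoh7_Null replicate 1.

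At the low end, A930011G23Rik, a long gene with no assigned name, fell by 2.69 on the log2 scale, from 12.8 to 93.6 CPM in Onecut2-led cells to 3.08 to 19.7 CPM (SE 0.3, edgeR adjusted p 6.36e-11). Pmfbp1 (-2.39), Lhfp (-2.29), Gm20649 (-2.24) and Cxxc4, an inhibitor of Wnt signalling (-2.2), followed, given as log2 differences. All were lower in 6 of 6 libraries, which the rule for naming them required.

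Within single clusters, where fewer cells and genes could be tested, fewer genes passed. With only cells of cluster 2, an alternative chosen after seeing the data, 20 genes of 2623 passed, and 342 of the 414 called genes that were tested there (82.6%) had the same direction. Within that cluster Tfap2b kept a log2 difference of -0.63 (edgeR adjusted p 0.00309) and Fgf15 of 0.68 (0.00149), while Hes5 had 0.47 (0.445) and Nrxn3 had -0.22 (0.872). With only cells of cluster 45, 20 genes of 1613 passed and 268 of 328 (81.7%) had the same direction. There Hes5 had a log2 difference of 1.2 (edgeR adjusted p 7.21e-07) and Mfng of 1.02 (0.0265), while Fgf15 had 0.24 (0.603) and Hes1 had 0.18 (0.742). Without both Bax_Null libraries, 510 of 5994 genes passed and all 614 called genes tested had the same direction. The cells in each of these fits were among those that made the calls. Shared direction was therefore partly built in and is no independent check.

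Levels were also taken along the margin between the sums. Hes5 averaged 857 CPM where the margin was +3 or more (149 cells), 518 at +1 or +2 (399 cells), 399 at 0 (244 cells), 257 at -1 or -2 (611 cells) and 152 at -3 or less (1122 cells). Tfap2b went the other way in the same bins, at 262, 329, 507, 537 and 942 CPM, and so did Ina, at 241, 333, 445, 617 and 1120 CPM. Pax6 stayed between 1790 and 2240 CPM in these 5 bins. The 137 cells with none of the 8 genes, as few as 3 in a library, had 803 CPM of Hes5, 84.9 of Tfap2b and 187 of Ina. Their Fgf15, Mfng and Btg2 averaged 1010, 227 and 430 CPM, against 644, 128 and 425 CPM at +3 or more. Lfng and Neurod4 were lower than at +3 or more, at 109 against 144 and 61.2 against 77.5 CPM. High Hes5, Fgf15, Mfng and Btg2 were thus not particular to Ptf1a-led cells within the label. The bins were made from the cells' own counts, so the order is a description.

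**Figure D3:**
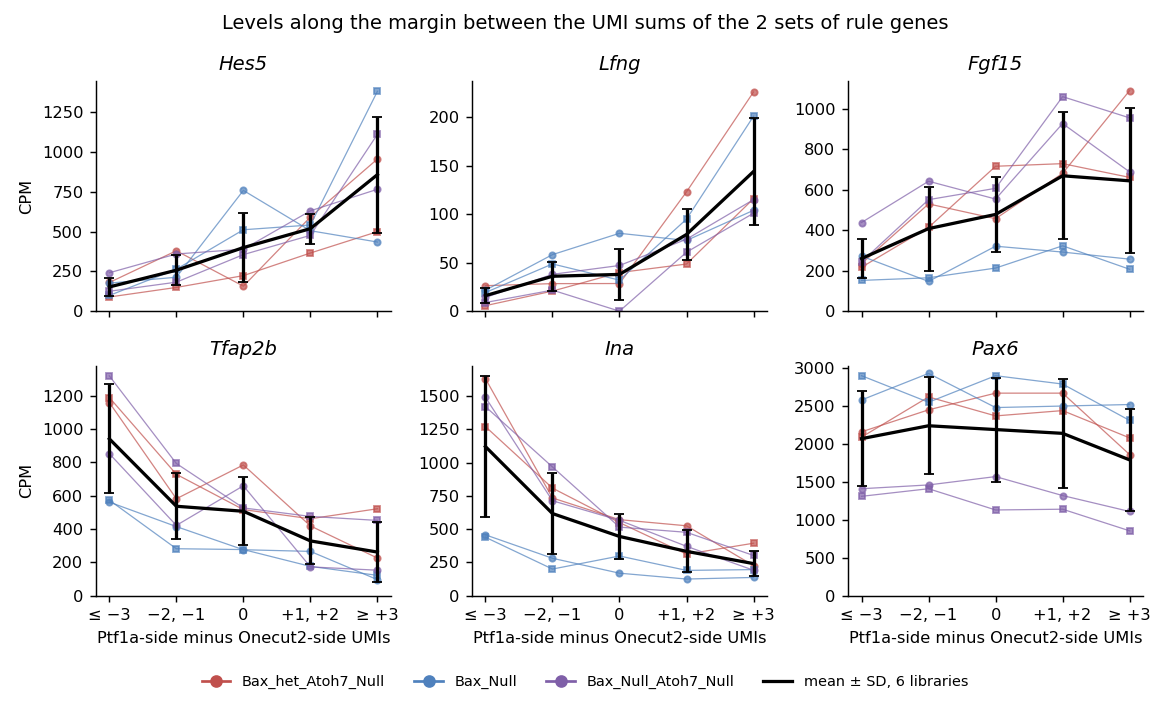
Level in CPM of selected genes in labelled cells binned by the UMI sum of the Ptf1a side minus that of the Onecut2 side, with a thin line for each library and a black line for the mean with its SD over 6 libraries. Hes5 goes from 857 CPM at +3 or more to 152 CPM at -3 or less, and Ina from 241 to 1120 CPM.

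The second question was whether the number of Ptf1a-led cells differed with genotype. They made up 0.842%, 1.35%, 0.73%, 0.863%, 0.618% and 0.575% of all cells, in the order used above. Both Bax_Null_Atoh7_Null libraries were lowest, and only Bax_het_Atoh7_Null replicate 2 passed 1%. The group means were 1.1% ± 0.358 (SD, n = 2) for Bax_het_Atoh7_Null, 0.797% ± 0.0938 for Bax_Null and 0.597% ± 0.0299 for Bax_Null_Atoh7_Null. In edgeR's quasi-likelihood test on cell counts of 7 classes, Bax_Null_Atoh7_Null was lower than Bax_het_Atoh7_Null (log2 difference -0.88, SE 0.28, adjusted p 0.0362). The call was lost in 5 of 6 fits without 1 library. Without Bax_het_Atoh7_Null replicate 2 the log2 difference was -0.49 (edgeR adjusted p 0.424), and without either Bax_Null or either Bax_Null_Atoh7_Null library it was -0.94 to -0.83 (0.179 to 0.309). The log2 differences of Bax_Null_Atoh7_Null and of Bax_het_Atoh7_Null from Bax_Null were -0.41 (edgeR adjusted p 0.211) and 0.47 (0.129), and neither passed. With a minimum of 2 UMIs of the larger sum the first was -0.99 (edgeR adjusted p 0.00672). The second was 0.76 (0.0121) without Bax_het_Atoh7_Null replicate 1 and 0.08 (0.76) without replicate 2. After thinning every cell to 1000 UMIs the shares were 0.852%, 1.14%, 0.624%, 0.626%, 0.517% and 0.578%. Bax_het_Atoh7_Null then exceeded Bax_Null (log2 difference 0.68, edgeR adjusted p 0.000636), while the first difference was -0.2 (0.376). Bax_Null_Atoh7_Null differed from Bax_het_Atoh7_Null by -0.87 (edgeR adjusted p 8.59e-05) after thinning. That difference was -1.0 (0.00514) without doublets and -1.29 (0.00168) with a minimum of 2 UMIs. With a replicate block it did not pass (-0.85, edgeR adjusted p 0.126).

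As a share of cells labelled horizontal, Ptf1a-led cells made up 19.1%, 25.7%, 23.1%, 28.1%, 17.1% and 13.6%. The Bax_Null_Atoh7_Null libraries were again the lowest, and the other groups overlapped. These shares rest on the same counts of the choosing genes, with the same limit. Thinned, the shares were 19.3%, 21.7%, 19.4%, 20.1%, 13.9% and 13.7%, leaving out 73 labelled cells below that depth. The mean difference of Bax_Null_Atoh7_Null from Bax_Null was -10.2 percentage points (-5.94 thinned) and from Bax_het_Atoh7_Null -7.07 points (-3.76 without Bax_het_Atoh7_Null replicate 2). Each of the first values had an exact two-sided permutation p of 0.333, the smallest that 2 against 2 libraries can give. Bax_het_Atoh7_Null differed from Bax_Null by -3.16 points (exact permutation p 0.667).

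**Figure D4:**
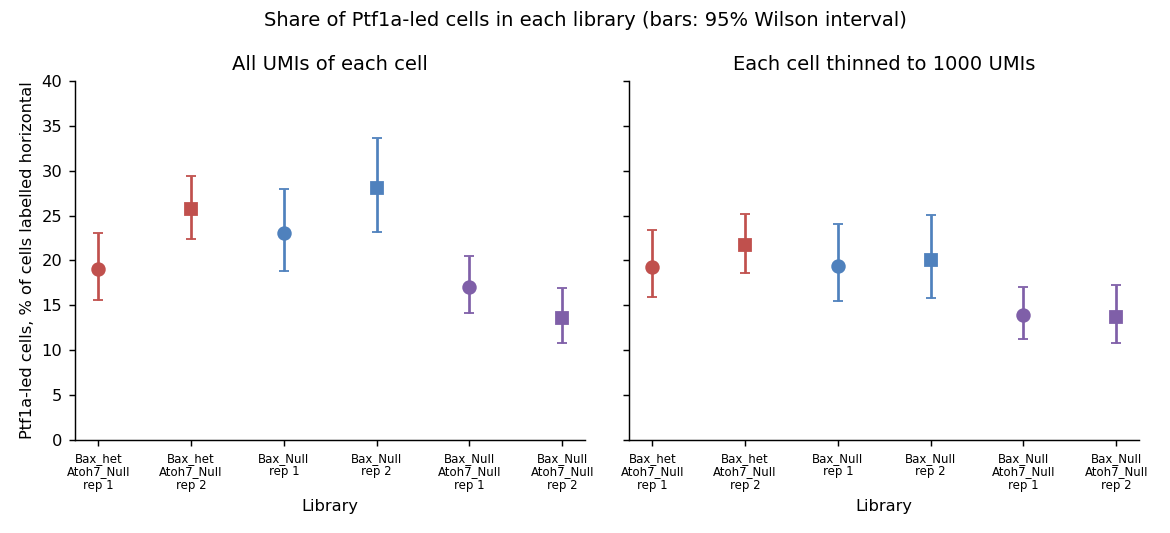
Ptf1a-led cells as a percent of cells labelled horizontal in each library, as counted (left) and after thinning each cell to 1000 UMIs (right), with Wilson 95% intervals that cover counting error only. The 2 Bax_Null_Atoh7_Null libraries, at 17.1% and 13.6% as counted, are the lowest.

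The third question was which genes differed between genotypes within Ptf1a-led cells. Between the 2 Atoh7 null groups few did. Of 4500 genes tested with edgeR's quasi-likelihood test, 64 (1.42%) passed, 6 (0.133%) higher and 58 (1.29%) lower in Bax_Null_Atoh7_Null than in Bax_het_Atoh7_Null, with a median log2 difference of 0.01 over all genes. DESeq2 called 26. Pax6 was the only gene of the amacrine, horizontal, ganglion and photoreceptor lists among them. Its levels were 2200 and 2190 CPM in Bax_het_Atoh7_Null, 3040 and 3150 CPM in Bax_Null, and 1180 and 940 CPM in Bax_Null_Atoh7_Null. No group overlapped another, and the double mutant was lower than Bax_het_Atoh7_Null (log2 difference -1.04, SE 0.18, edgeR adjusted p 0.000193) and than Bax_Null (-1.54, SE 0.17, 3.2e-09). The first of these passed in each of 15 other settings. Onecut2-led cells showed the same order, with 2090 and 2120, 3240 and 3420, and 1300 and 1160 CPM, and the test of whether the class difference in Pax6 differed between genotypes did not pass (interaction -0.28 on the log2 scale, SE 0.1, edgeR adjusted p 0.987, for the double mutant against Bax_het_Atoh7_Null).

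The progenitor and cell cycle lists gave no call between the Atoh7 null groups, 0 of 14 each in edgeR, with medians of 0.53 and 0.73. Sfrp2 had a log2 difference of 0.7 (edgeR adjusted p 0.0579) and Rax of 0.83 (0.0545). Bax itself was lower by -1.48 on the log2 scale (SE 0.4, edgeR adjusted p 0.0443), and so was the ferritin gene Ftl1, its neighbour on chromosome 7, by -2.43 (edgeR adjusted p 6.73e-06), with -5.71 without Bax_Null_Atoh7_Null replicate 1, -1.66 without the group's replicate 2, and an adjusted p of 0.566 in DESeq2. Ftl1 stood at 2320, 1770, 126, 160, 654 and 42.2 plain CPM, so the library labelled Bax_Null_Atoh7_Null replicate 1 again lay between. The call for Bax was lost without that group's replicate 2 (-0.9, edgeR adjusted p 0.515) and without Bax_het_Atoh7_Null replicate 1 (-1.32, 0.229). Ribosomal protein and respiratory chain genes recurred among the lower ones. By a list chosen after the values were seen, 17 of 84 ribosomal protein genes and 10 of 79 respiratory chain and ATP synthase genes were lower, with medians of -0.05 and -0.29 on the log2 scale, and 1 ribosomal protein gene, Rpl29, was higher. Without Bax_Null_Atoh7_Null replicate 1 these counts were 29 of 84 and 22 of 85, and without replicate 2 they were 14 of 84 and 2 of 85. In that last fit 8 ribosomal protein genes were higher and their median turned to 0.13. Many ribosomal protein genes have near-identical copies, so their counts are uncertain. Among single genes, Bola2, of iron-sulfur handling, was 265 and 280 CPM in Bax_het_Atoh7_Null, 379 and 397 in Bax_Null, and 82.6 and 80.1 in Bax_Null_Atoh7_Null (log2 difference -1.74, SE 0.28, edgeR adjusted p 8.79e-05). Its groups did not overlap, which the rule for naming it required of the groups compared. Tenm3, a cell adhesion gene, was among the higher ones, at 20.4 and 33.6 CPM against 82.6 and 131 CPM (log2 difference 1.81, SE 0.43, edgeR adjusted p 0.0156). It did not pass without Bax_Null_Atoh7_Null replicate 2 (1.5, edgeR adjusted p 0.228) or without Bax_het_Atoh7_Null replicate 1 (1.56, 0.149).

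Against the Bax_Null libraries many more genes passed. In Bax_Null_Atoh7_Null 942 (20.9%) did, 377 (8.38%) higher and 565 (12.6%) lower, and in Bax_het_Atoh7_Null 1039 (23.1%) did, 452 (10%) higher and 587 (13%) lower. Both comparisons share the 2 Bax_Null libraries. In each, DESeq2 called fewer genes and most of its calls were lower ones, with the counts given in the closing section on processing. Pgam1, a glycolysis enzyme, had 0 UMIs in all 4 Atoh7 null libraries and 371 CPM in Bax_Null. That was at least 14.7-fold lower in Bax_Null_Atoh7_Null and 22.2-fold lower in Bax_het_Atoh7_Null, by a floor of 3 counts in the shallower library of the group. Pgam1 was not alone: Rps12-ps3 and the mitochondrial gene mt-Nd3 were also at 0 in both groups, against 141 and 770 CPM in Bax_Null. For Bax_Null_Atoh7_Null, Actg1 had log2 differences from Bax_Null of -11.97 to -7.73 over the other settings, and Sumo2 of -11.84 to -8.41. The globin genes Hbb-bt, Hbb-bs, Hba-a1 and Hba-a2 were lower in both. How much of these counts came from the libraries and how much from the genotype cannot be told apart.

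Within that limit, cell cycle genes were higher in Ptf1a-led cells of the double mutant than of Bax_Null, 11 of 14 with a median log2 difference of 2.02. In Bax_het_Atoh7_Null 6 of 14 were, with a median of 1.56. For the double mutant the count was 3 of 15 without Bax_Null_Atoh7_Null replicate 1, where Ube2c turned to -0.90, 6 of 13 without Bax_Null replicate 1, 7 of 13 without Bax_Null replicate 2 and 7 of 17 without Bax_Null_Atoh7_Null replicate 2. Cells with high doublet scores made up 16.5% and 16.2% of the double mutant's Ptf1a-led cells and 6.67% and 3.75% of those of Bax_Null. Without them only 3 cell cycle genes could be tested and 0 passed in edgeR, with a median of 2.12. For Bax_het_Atoh7_Null the count was 2 to 7 of 13 to 17 without 1 library, and 2 of 13 without its replicate 2. Some of these genes rested on few UMIs. In Bax_Null replicate 1, Cenpf, Cdk1 and Ccnb1 stood at 6.32, 6.32 and 3.16 plain CPM, under that library's floor of 3 counts (9.48 CPM). Cenpf, a kinetochore protein gene, was 45.9 and 78.4 CPM in Bax_het_Atoh7_Null, 7.65 and 24.6 in Bax_Null, and 160 and 58.3 in Bax_Null_Atoh7_Null. The Bax_Null libraries were the lowest (log2 difference 2.76, SE 0.5, edgeR adjusted p 5.18e-05 for the double mutant), and without Bax_Null_Atoh7_Null replicate 1 it was 1.67 (0.149). Of the 14 progenitor genes, Lhx2, Sox2, Sfrp2, Fgf15, Ccnd1 and Rax were higher in the double mutant than in Bax_Null and Hes5 and Hes1 were lower, with a median of 0.59. Of these, Hes5 had a log2 difference of -0.06 (edgeR adjusted p 0.922) without Bax_Null replicate 2 and -0.61 (0.109) without Bax_Null_Atoh7_Null replicate 2, and the calls for Rax and Lhx2 were lost in 3 and 4 of the 6 fits without 1 library. Fgf15 was 744 and 664, 337 and 329, and 816 and 903 CPM in the 3 groups, the Bax_Null libraries again lowest (log2 difference 1.36, SE 0.19, edgeR adjusted p 2.8e-07). Hes1 had the opposite order, at 153 and 109, 765 and 852, and 151 and 117 CPM (log2 difference -2.57, SE 0.22, edgeR adjusted p 2.4e-12). Otx2 was lower in the double mutant than in Bax_Null, at 15.3 and 42.0, 233 and 151, and 87.4 and 58.3 CPM (log2 difference -1.32, SE 0.34, edgeR adjusted p 0.00351), and without Bax_Null replicate 1 the difference was -0.99 (0.0629). Of 7 stress and cell death genes, Jun, Mdm2 and Fos were higher, Atf4 was lower and 3 did not pass, with a median of 0.17. Jun was 199 and 176, 42.1 and 30.8, and 219 and 240 CPM (log2 difference 2.65, SE 0.33, edgeR adjusted p 2.61e-08).

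**Figure D5:**
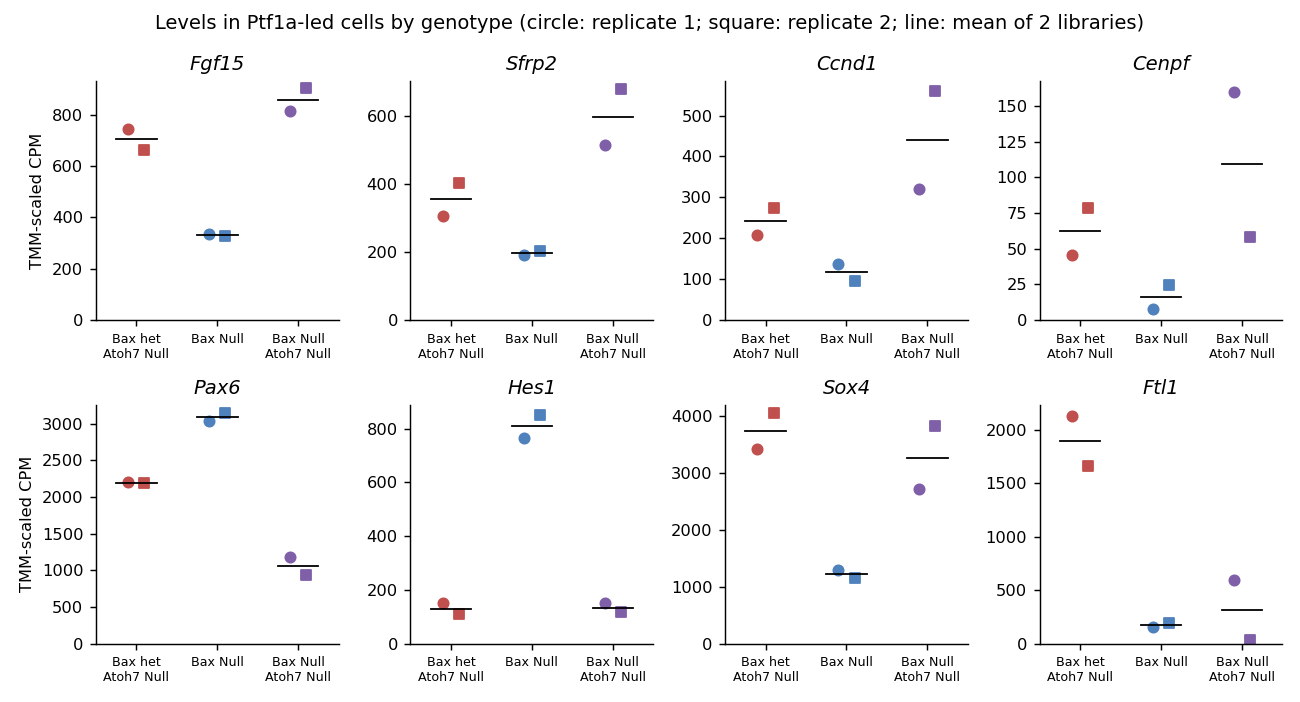
Level of selected genes in the Ptf1a-led cells of each library by genotype, in TMM-scaled CPM, with circles and squares for replicates 1 and 2 and a line at the mean of the pair. Pax6 falls into 3 separate pairs of libraries, and the 2 Bax_Null libraries are the lowest for Fgf15 and Cenpf and the highest for Hes1.

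Last, the difference between Ptf1a-led and Onecut2-led cells was itself compared between genotypes. On the log2 scale this takes out what changes a gene by the same factor in both classes of a library. It does not take out depth, which bears on the class a cell is given, or RNA from other cells that enters the classes unequally. Of 7345 genes, 6 (0.0817%) passed in edgeR between Bax_Null_Atoh7_Null and Bax_Null, 4 (0.0545%) higher and 2 (0.0272%) lower. Between Bax_het_Atoh7_Null and Bax_Null 11 (0.15%) passed, 2 (0.0272%) higher and 9 (0.123%) lower, and between the Atoh7 null groups 0 (0%) did. Between the Atoh7 null groups 356 genes had an unadjusted p under 0.05, and DESeq2 called 0. All 6 and 10 of the 11 had also passed within Ptf1a-led cells, where 20.9% and 23.1% of all genes tested did. The same Ptf1a-led counts enter both tests, so this overlap is partly built in. Ccnd1, the D cyclin of retinal progenitors, stood at 211, 275, 138, 95.5, 322 and 555 CPM in Ptf1a-led cells and 204, 236, 250, 202, 313 and 273 CPM in Onecut2-led cells. It was lower in the Ptf1a-led cells of both Bax_Null libraries and higher in those of both double mutant libraries (interaction 1.45 on the log2 scale, SE 0.26, edgeR adjusted p 0.00158). Cenpf showed the same sign (2.78, SE 0.51, 0.00158), as did Cenpa, another kinetochore gene (2.49, SE 0.5, 0.00864). Without doublets none of the 6 passed, and DESeq2 called 0. Ccnd1 also failed to pass without Bax_Null_Atoh7_Null replicate 2 (0.96, edgeR adjusted p 0.447) or Bax_Null replicate 2 (1.35, 0.0895). Cenpf and Cenpa failed to pass without Bax_Null replicate 2 (adjusted p 0.517 and 0.914 in edgeR) or Bax_Null_Atoh7_Null replicate 1 (0.36 and 0.256). Of the list genes in this comparison, 1 of 14 progenitor genes (Ccnd1) and 1 of 16 cell cycle genes (Cenpf) passed.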

How the data were processed

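Single-cell libraries of retinal cells were made with the 10x Genomics 3' v2 kit from polyA RNA, per the labels' protocols. Cell Ranger 1.2.1 and the mm10 build are named in the submitters' processing notes, and how reads were counted beyond that is not given in the sources used here. The authors deposited a matrix of raw UMI counts (27998 genes, 93128 cells) and a cell table with cell types and clusters. Of 8 libraries in the table, 2 (26078 cells) belong to no listed sample and were not analysed here. The UMI total that the authors deposited for each cell equalled the matrix sum in all 67050 cells used. Doublet scores came from Scrublet (scanpy 1.11.5), and the top 8% of cells per library by score (5364 cells) were left out in an alternative only.

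The cells and the gene lists were chosen with earlier results of these data known. UMI counts were summed per library and class, and the library was the replicate (3 groups of 2). edgeR 4.0.16 (R 4.3.3; filterByExpr, TMM, glmQLFit, glmQLFTest) gave Benjamini-Hochberg adjusted p-values over all genes tested, with a threshold of 0.05 and the 8 choosing genes untested. All 6 libraries entered each fit. The comparison of classes had the library as a block, and genotype comparisons had group only. Shares of the label were compared by exact permutation tests. On simulated counts with changed genes, 2-fold and 4-fold changes were recovered at 32.0% and 83.5% for genotypes within Ptf1a-led cells, 85.5% and 99.5% between classes, and 18.5% and 49.0% for the difference of differences. Named genes were the listed ones and, per comparison, up to 6 largest rises and 6 largest falls among called genes of at least 20 CPM whose libraries did not overlap or moved the same way. Xist, Tsix, Y-linked and mitochondrial genes were left out of the latter. Gene positions came from GENCODE release 21 of mouse, which held 98.7% of identifiers. Alternatives were DESeq2 1.42.0, edgeR with RLE size factors, testing low genes too, a minimum of 2 UMIs of the larger sum, cells with 0 UMIs of the other sum only, doublets left out, thinning to 1000 UMIs a cell, each library left out and a replicate block. A few listed genes are not reported here by name and were left out of the counts of values for named genes.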

Additional observations from a re-analysis of the deposited data

Results flagged for a closer look

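Between Bax_Null_Atoh7_Null and Bax_Null, the difference between Ptf1a-led and Onecut2-led cells itself differed for 6 genes, by edgeR's quasi-likelihood test of the interaction (Benjamini-Hochberg over 7345 genes). The log2 differences of differences were 2.78 for Cenpf, 2.49 for Cenpa, 2.07 for Aldh1a1, 1.45 for Ccnd1, -0.39 for Tuba1a and -1.02 for Mllt11. Aldh1a1, a retinoic acid synthesis enzyme gene of the dorsal eye, rested on 1 library, with 220 CPM in the Ptf1a-led cells of Bax_Null_Atoh7_Null replicate 1 and 36.0 CPM in those of replicate 2. The neuronal gene Mllt11 was lower in Ptf1a-led cells of every library, most so in both double mutant libraries.

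Between Bax_het_Atoh7_Null and Bax_Null, 11 genes were called in the same test, among them Tuba1a, whose value is not given here. The globin genes gave -4.57 for Hba-a1, -3.58 for Hba-a2 and -2.31 for Hbb-bs. Hba-a1 stood at 666 and 222 CPM in the Ptf1a-led cells of the Bax_Null libraries and at 5.14 and 2.81 CPM in those of Bax_het_Atoh7_Null, and the part of red cell RNA in these values was not tested. The value was -1.04 for Tpm3, -0.41 for Stmn1, -0.39 for Tmsb10, -0.38 for Nnat, -0.37 for Ubb, 0.82 for Dkk3 and 2.23 for Cenpf. Dkk3, a Wnt modulator gene, was 828 and 764 CPM in Ptf1a-led cells of Bax_het_Atoh7_Null against 546 and 450 CPM in Onecut2-led cells, and it showed no such gap in the Bax_Null libraries. Both sets of calls share the Bax_Null libraries.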

How the results depend on the processing

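The log2 difference in the share of all cells was -0.99 (edgeR adjusted p 0.00672) between Bax_Null_Atoh7_Null and Bax_Null with a minimum of 2 UMIs. It was -0.2 (edgeR adjusted p 0.376) after thinning to 1000 UMIs a cell. Between Bax_Null_Atoh7_Null and Bax_het_Atoh7_Null it was -0.85 (0.126) with a replicate block and -1.17 to -0.49 over the fits without 1 library, 5 of 6 of which did not pass. Between Bax_het_Atoh7_Null and Bax_Null it was 0.68 (0.000636) after thinning and 0.08 to 0.76 without 1 library, passing without Bax_het_Atoh7_Null replicate 1. The share of the label in the latter pair reversed to 0.753 points after thinning and ranged from -6.47 to 0.141 without 1 library, 0.141 being without Bax_het_Atoh7_Null replicate 1.

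Counts of called genes moved between settings. Within Ptf1a-led cells, Bax_Null_Atoh7_Null against Bax_Null gave 363 with DESeq2, 428 with cells holding 0 UMIs of the other sum, 561 after thinning and 534 to 939 without 1 library. Against Bax_het_Atoh7_Null it gave 26 with DESeq2, 34 with a minimum of 2 UMIs, 30 with cells holding 0 UMIs of the other sum, 37 without doublets and 45 to 109 without 1 library. Bax_het_Atoh7_Null against Bax_Null gave 286, 354 and 412 with DESeq2, cells holding 0 UMIs of the other sum and thinning, and 478 to 1195 without 1 library. DESeq2 split its calls 58 higher and 305 lower, and 61 and 225, in the 2 comparisons with Bax_Null, against 377 and 565, and 452 and 587. Between classes the count was 302 with DESeq2, 168 with cells holding 0 UMIs of the other sum, 107 with no library block, 20 in cluster 2, 20 in cluster 45 and 491 to 589 without 1 library. For the difference of differences, Bax_Null_Atoh7_Null against Bax_Null gave 0 with DESeq2, 2 with cells holding 0 UMIs of the other sum, 0 without doublets and 0 to 9 without 1 library. Against Bax_het_Atoh7_Null the replicate block gave 1 and leaving out 1 library 0 to 1. Bax_het_Atoh7_Null against Bax_Null gave 0 with DESeq2, 4 with no filter, 6 with cells holding 0 UMIs of the other sum, 5 without doublets and 0 to 14 without 1 library. Where cells or genes were left out the tests had fewer of them, and otherwise the cause was not tested.

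Replicate numbers did not pair the libraries (correlations -0.014, 0.0592 and 0.0189). With the replicate block the counts within Ptf1a-led cells were 968, 75 and 1052 in the 3 comparisons, for the difference of differences 7, 1 and 14, and the share log2 differences -0.4, -0.85 and 0.45. Of values for named genes, 6 of 817 between classes reversed, all in cluster 45. These were Sox2 (-0.33), Stmn1 (0.01), Id3 (-0.35), Gadd45a (-0.04), Ftl1 (0.07) and Neurod4 (-0.24). Between genotypes Ube2c ranged from -0.90 (without Bax_Null_Atoh7_Null replicate 1) to 2.58 over the fits without 1 library, Stmn3 reversed to 0.33 and 0.37 with cells holding 0 UMIs of the other sum, and the interaction of Hbb-bs ranged from -5.5 to 0.21, the latter without Bax_het_Atoh7_Null replicate 2.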

Other observations

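Some genes were high in the whole horizontal label rather than in Ptf1a-led cells alone, on plain CPM averaged over 6 libraries. Cldn5, a tight junction gene best known from blood vessels, averaged 303 CPM in Ptf1a-led and 259 CPM in Onecut2-led cells, against 2.15 in ganglion cells and 0.92 in multipotent progenitors. The vessel gene Cdh5 was at 0 and Pecam1 at 1.41 CPM in Ptf1a-led cells. Cdkn1c, an inhibitor of cyclin-dependent kinases that acts at cell cycle exit, averaged 912 and 835 CPM in the 2 classes, against 302 in ganglion cells and 209 in multipotent progenitors. Eomes, a T-box factor of some ganglion cells, averaged 27.8 and 35.8 CPM. Pax6 averaged 2030 and 2130 CPM, against 1200 in ganglion cells and 696 in multipotent progenitors.

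The class difference in Cdkn1c between Bax_Null_Atoh7_Null and Bax_het_Atoh7_Null, chosen after its values were seen, had an interaction of -0.66 on the log2 scale that did not pass (edgeR adjusted p 0.304). It passed when any of 4 libraries was left out, for example at -1.03 without Bax_het_Atoh7_Null replicate 2 (edgeR adjusted p 0.00728). With a replicate block the interaction was -0.73 and passed (edgeR adjusted p 0.00301). With only cells holding 0 UMIs of the other sum it was 0.1 (edgeR adjusted p 0.992).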
